A study of Mus musculus with 5 samples.

Results

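The opioid system of the mouse sensory ganglion was examined through 7 genes, namely 3 precursors of opioid peptides (Penk, Pdyn and Pnoc) and 4 opioid receptors (Oprm1, Oprd1, Oprk1 and Oprl1). The genes were chosen by name, and each of the 7 matched 1 row among the 17267 genes counted. They are described across 14 cell types of the lumbar dorsal root ganglion (DRG), the cluster of sensory cell bodies beside the spinal cord. The cells came from 5 untreated wild-type C57BL/6 mice, 3 males and 2 females, all 18 weeks old, with no transgene or other allele named. RNA was captured in droplets with a 3′ assay that tags every captured transcript with its own short barcode (unique molecular identifier, UMI). The cell type of each cell is the deposited one. Names starting with PEP, NP and NF stand for peptidergic, non-peptidergic and neurofilament neurons. No library is tied to a sample label or a sex, so the 5 libraries are called mouse 1 to mouse 5.

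Opioid peptides are cut from larger precursors by prohormone convertases inside secretory vesicles. Penk encodes the enkephalins, which act at the mu and delta receptors, Pdyn encodes the dynorphins, which prefer the kappa receptor, and Pnoc encodes nociceptin, the ligand of the receptor made from Oprl1. Oprm1, Oprd1 and Oprk1 encode the mu, delta and kappa receptors. All 4 receptors couple to inhibitory G proteins, which lower cyclic AMP, open inward rectifier potassium channels and close calcium channels at nerve endings. Sensory neurons of the DRG carry pain, itch, temperature and touch to the spinal cord, and opioid analgesics act partly on their endings.

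The 3 precursor genes carry a shared coding motif for the opioid core of their peptides. It was searched in frame in GENCODE M21 transcripts (GRCm38, the same assembly as mm10) as 5 codons, the first TAC, TAT, TTC or TTT, then GGN, GGN, TTC or TTT, and NNN. It was found 7 times in Penk, 3 times in Pdyn and 1 time in Pnoc. The stretches below are shown because they make the family visible and set Pnoc apart. The 5 codons are in capitals with 6 flanking bases on each side, and all lie on the minus strand.
Penk, copy 1 of 7, chr4:4134328-4134354: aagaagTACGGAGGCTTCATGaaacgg
Penk, copy 6 of 7, chr4:4133935-4133961: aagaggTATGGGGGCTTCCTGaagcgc
Pdyn, copy 1 of 3, chr2:129688232-129688258: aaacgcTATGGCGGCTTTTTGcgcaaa
Pdyn, copy 3 of 3, chr2:129688067-129688093: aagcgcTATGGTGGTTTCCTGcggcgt
Pnoc, the only copy, chr14:65404872-65404898: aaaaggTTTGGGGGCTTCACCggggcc
The Penk and Pdyn stretches start with a TAC or TAT codon, and Pnoc starts with TTT. Copy 6 of Penk ends in the leucine codon CTG, as copy 3 of Pdyn does, and copy 1 of Penk ends in ATG. In the annotation Penk spans chr4:4133531-4138819, Pdyn chr2:129686565-129699844 and Pnoc chr14:65400673-65425472. Among the receptors, Oprm1 spans chr10:6758506-7038198, Oprd1 chr4:132110726-132144486, Oprk1 chr1:5588466-5606131 and Oprl1 chr2:181715016-181720985. No word of 55 bases, the length of the transcript read, was shared between annotated transcripts of any of the 21 pairs of members.

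The matrix held 3352 cells, between 164 and 1370 per mouse, and 224553219 UMIs in genes. A type held 3 to 463 cells in a mouse, and 9 of the 70 sums of a type in a mouse rested on fewer than 10 cells. The median depth ranged from 16889 UMIs per endothelial cell to 105150 per NP_Mrgprd cell, and was 30800.5 in PEP3_Trpm8. 7 cell barcodes occurred in 2 libraries. Trpm8, Mrgprd, Mrgpra3, Nts, Pvalb, Calb1, Ntrk2 and Th were each highest in the type named for them. The genes that name the PEP1 and PEP2 types, and Necab2, were not among the markers checked. Further reservations are given here. Trpm8, the cold-activated channel, was at 44.0 CPM (UMIs of a gene per 1000000 UMIs counted) in PEP3_Trpm8 and at most 1.03 CPM elsewhere. PEP3_Trpm8 had a high level of the peptidergic marker Tac1 (4981 ± 911 CPM, SD, n = 5) but a Calca level of 446 ± 111 CPM against 13435 CPM in PEP1_S100a11.Tagln2, and 90 of its 168 cells held a Trpm8 UMI. Glul, a listed marker of satellite glia, was higher in endothelial cells (1052 CPM) than in satellite glia (539 CPM). The cells labelled satellite glia held the glial gene Apoe at 78916 CPM and also the fibroblast marker Col1a2 (158 CPM). They serve as a background: over 249 satellite glia there was 1 Penk UMI and no UMI of the other 6 members, and 0 of 249 cells allows a share of cells with a UMI of up to 1.2%, which is no limit on the share expressing a gene. Endothelial cells held 1 Oprl1 UMI and none of the rest. All other UMIs of the 7 genes were in neurons.

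Levels below are CPM of the UMIs summed over the cells of a type in 1 mouse, given as mean ± SD over 5 mice. The assay counts 3′ ends without correction for length or capture, so a gene is compared between types and not with another gene. The types were clustered from these same counts, so a test between types describes how steady a difference is over mice. A call means an adjusted p under 0.01 in edgeR's quasi-likelihood test and at least a 2-fold difference between a type and all other cells. The SE given with a log2 fold change was back-calculated, as its absolute value divided by the square root of the F statistic of that test. Of the 98 combinations of a member and a type, 54 passed the filter on low counts, 14 were called higher in the type, 29 were called lower and 11 were not called. Over all genes and types, 9.32% of the tests called a gene higher and 16.4% called it lower. In 15 of the 29 lower calls the type held no UMI of the member at all.

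**Figure D1:**
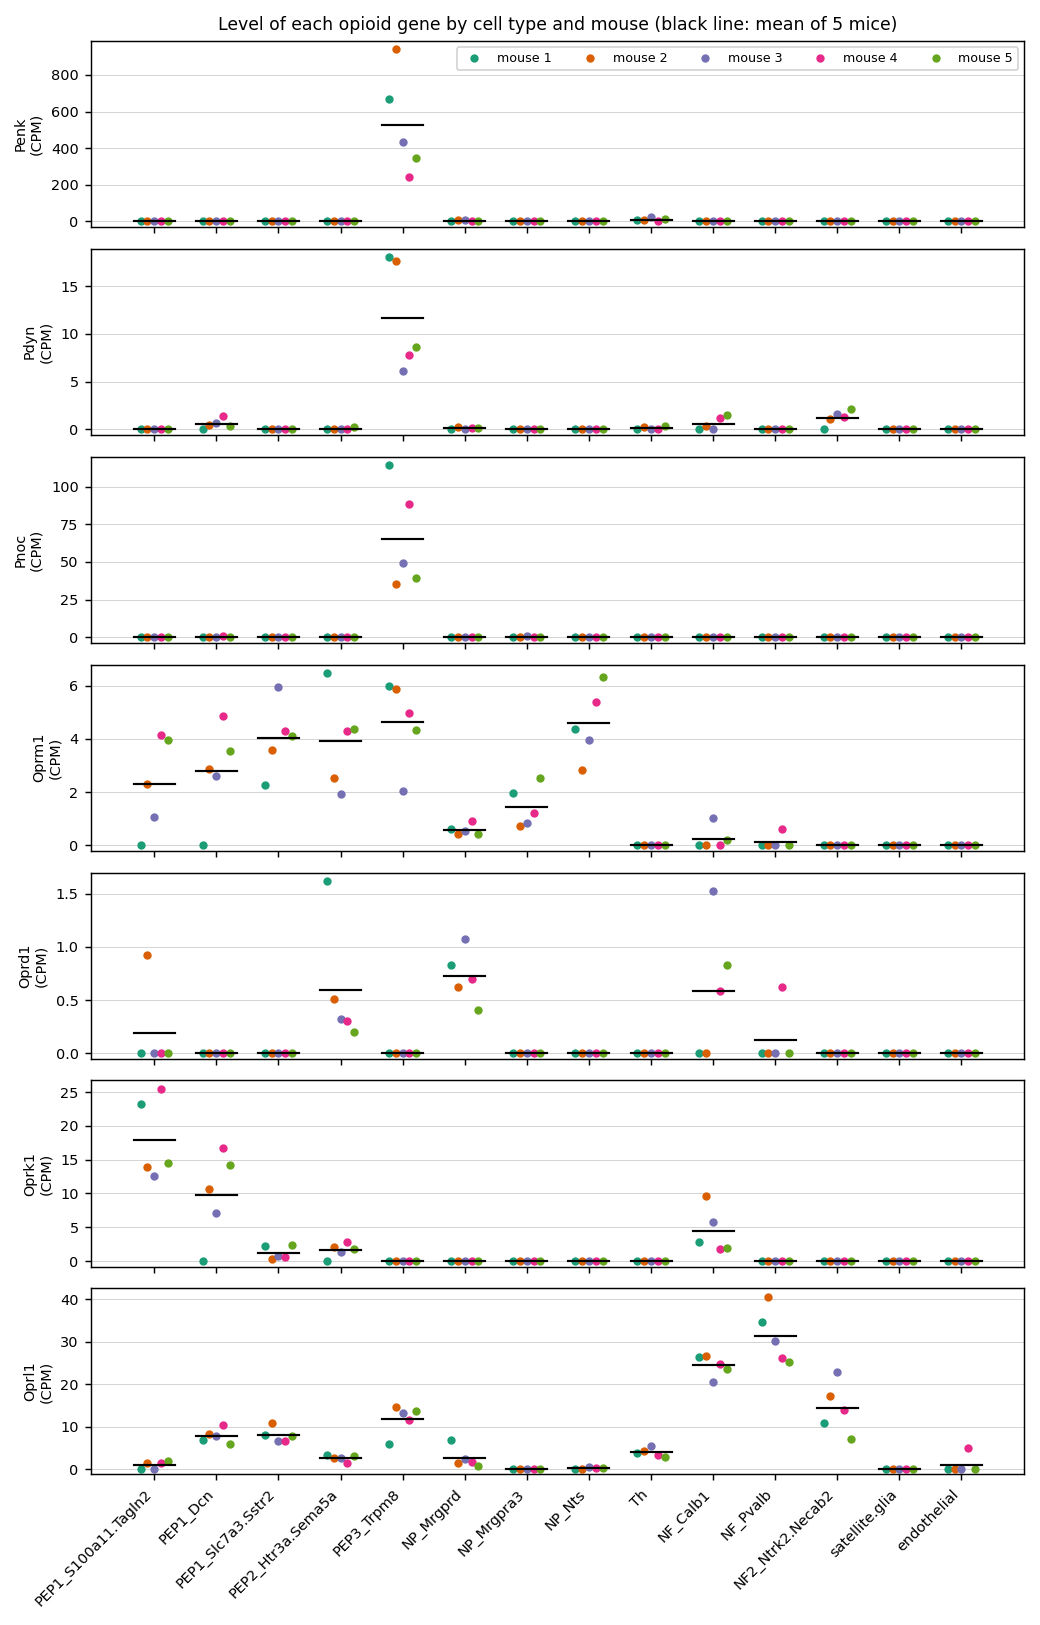
Level of each member (vertical axis, CPM, a linear scale of its own per gene) in each of the 14 cell types (horizontal axis), with a point per mouse and a black line at the mean of 5 mice. The 3 precursors stand highest in PEP3_Trpm8, where Penk lies between 244 and 940.3 CPM, while the receptors spread over several neuron types.

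The 3 precursor genes were all highest in PEP3_Trpm8, the cold-sensing peptidergic type. Each was called higher there than in other cells, as were 2 receptors, Oprm1 and Oprl1. PEP3_Trpm8 therefore accounted for 5 of the 14 higher calls. Oprk1 was called lower there and Oprd1 was not tested. Of all genes tested in that type, 7.28% were called higher. Penk was tested in all 14 types and called higher in PEP3_Trpm8 alone. Pnoc passed the filter on low counts in 2 types and Pdyn in 1, PEP3_Trpm8. Both genes could pass it only through their level in PEP3_Trpm8. Penk, with 88.6% of its UMIs in PEP3_Trpm8, passed the filter there through that level as well. In the tests of the other types, PEP3_Trpm8 was part of the reference. The higher calls of the 3 precursors therefore support nothing by themselves.

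Penk, the enkephalin precursor, reached 667, 940.3, 436, 244 and 344 CPM in PEP3_Trpm8 of mouse 1 to mouse 5. All 5 values lay above the Penk level of the other cells of the same mouse, which averaged 1.63 ± 1.67 CPM. The log2 fold change was 8.42 ± 0.65 (SE, adjusted p = 7.52e-08, edgeR, higher in 5 of 5 mice). Of all Penk UMIs, 88.6% were in PEP3_Trpm8, where they sat in 61 of 168 cells (36.3%, exact 95% interval 29.0 to 44.1%). Few cells carried most of them. The median Penk-positive cell held 18 UMIs, 41 cells held at least 10, and the top 5 cells held 45.1% of the UMIs of the type. A single cell of mouse 2 held 544 UMIs, and without it the level of that mouse was 158 CPM instead of 940.3 and the mean was 370 ± 196 CPM, which is still highest of all types.

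Outside PEP3_Trpm8, Penk was found mainly in Th neurons, the touch-sensing C-fibres, at 9.74 ± 7.96 CPM, and in NP_Mrgprd neurons at 2.72 ± 3.56 CPM. In Th neurons the 5 mice ranged from 1.28 to 21.4 CPM, and 20 of 232 cells (8.62%) held a UMI. This level did not differ from that of other cells past the threshold (log2 fold change -0.54, adjusted p = 0.364, edgeR). Those other cells averaged 14.4 ± 5.98 CPM and included PEP3_Trpm8, which held 88.6% of all Penk UMIs. The 11 lower calls of Penk were made against a reference that included PEP3_Trpm8 too. Of the 126 Penk UMIs in Th cells, 92 were in 3 cells from 3 mice, all of which also held Th UMIs and none a Trpm8 UMI. Of the 155 Penk UMIs in NP_Mrgprd, 123 were in 4 cells from 2 mice. None of those 4 cells held a UMI of Mrgprd, the receptor gene that 886 of the other 896 cells of the type held, and none held Trpm8. Their median depth was 49038 UMIs against 105404 in the other cells of NP_Mrgprd. The Penk level of NP_Mrgprd therefore came largely from cells that lacked its defining marker. Every other type stood at 0.259 CPM or less.

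Pnoc, the nociceptin precursor, measured 114, 35.2, 48.9, 88.4 and 39.6 CPM in PEP3_Trpm8 of mouse 1 to mouse 5. All 5 lay above the other cells of the same mouse, which averaged 0.0185 ± 0.0313 CPM. Of 337 Pnoc UMIs, 334 were in PEP3_Trpm8, and 3 further types (NP_Mrgpra3, PEP1_Dcn and PEP2_Htr3a.Sema5a) held 1 UMI each. The pooled level was 4499 times that of all other cells, with a counting interval of 1526 to 21925, which covers counting error only. The log2 fold change was 11.66 ± 0.50 (SE, adjusted p = 2.60e-10, edgeR), and it depends on the 3 UMIs outside the type. The counting interval is wider than this SE, which understates the error of so few UMIs. Pnoc UMIs were spread over 50 of 168 cells (29.8%), with a median of 4.5 and a maximum of 33 UMIs per positive cell. That cell held 33 of the 38 Pnoc UMIs of mouse 1, and without it mouse 1 stood at 17.2 CPM and the mean at 45.9 ± 26.4 CPM. In 10 types no Pnoc UMI was seen. The deepest of these was NP_Mrgprd, where a count of 0 allows up to 0.0325 CPM, so the level in PEP3_Trpm8 was at least 2006-fold higher.

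Pdyn, the dynorphin precursor, was sparse. It was counted 89 times in all, 52 of them in 18 PEP3_Trpm8 cells. Its level there was 18.02, 17.6, 6.12, 7.74 and 8.65 CPM in mouse 1 to mouse 5, above the 0.128 ± 0.090 CPM of other cells in every mouse. The next levels were 1.22 ± 0.781 CPM in NF2_Ntrk2.Necab2, the A-delta touch neurons, 0.592 ± 0.680 CPM in NF_Calb1 and 0.555 ± 0.522 CPM in PEP1_Dcn. These rested on 9, 10 and 5 UMIs. In share of cells, NF2_Ntrk2.Necab2 (7 of 58 cells, 12.1%, interval 4.99 to 23.3%) overlapped PEP3_Trpm8 (18 of 168, 10.7%, interval 6.47 to 16.4%) at median depths of 96530.5 and 30800.5 UMIs per cell. Thinned to 10000 UMIs per cell, the expected shares were 1.54% and 6.87%. Without the filter on low counts, or without mouse 1, Pdyn was also called higher in NF2_Ntrk2.Necab2.

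The 3 precursors were spread unevenly over PEP3_Trpm8 cells. No precursor UMI was found in 79 of the 168 cells, UMIs of 1 precursor in 50, of 2 in 38 and of all 3 in 1. Penk and Pnoc were found together in 33 cells, where the product of their shares within each mouse gives 18.5 cells. Pdyn and Pnoc shared 1 cell against a product of 5.04, and Penk and Pdyn shared 7 against 6.23. After thinning to 10000 UMIs the first pair was seen together in 16.3% of the cells against a product of 7.08%, and the second in 0.0865% against 1.52%. Cells of a mouse are not replicates, so these counts are a description without a test.

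Cells with Pdyn differed from other PEP3_Trpm8 cells in Trpm8 and in Calb1, which encodes the calcium buffer calbindin. Of 50 cells with Pnoc, 41 held a Trpm8 UMI (82.0%), as did 42 of 61 cells with Penk (68.9%), but only 1 of 18 cells with Pdyn (5.56%). All 18 Pdyn cells, which came from all 5 mice, held Calb1 UMIs with a median of 747 CPM, whereas 24 of the 89 cells with Trpm8 and no Pdyn held any (27.0%, median 0 CPM). Tac1 UMIs were present in every cell of both groups. The cells with Pdyn had a median depth of 23071.5 UMIs against 32850 in the Trpm8 group, and Oprm1 was found in 0 of the 18 and in 17 of the 89. Penk was found in 7 of the 18 cells with Pdyn, all in mouse 4 and mouse 5, and in 41 of the 89. A further 61 cells of the type held neither a Pdyn nor a Trpm8 UMI. Of these, 13 held Penk, with 794 of the 2289 Penk UMIs of the type, and 21 held Calb1. The cell of mouse 2 with 544 Penk UMIs was among them. These groups were formed after the values were seen.

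**Figure D2:**
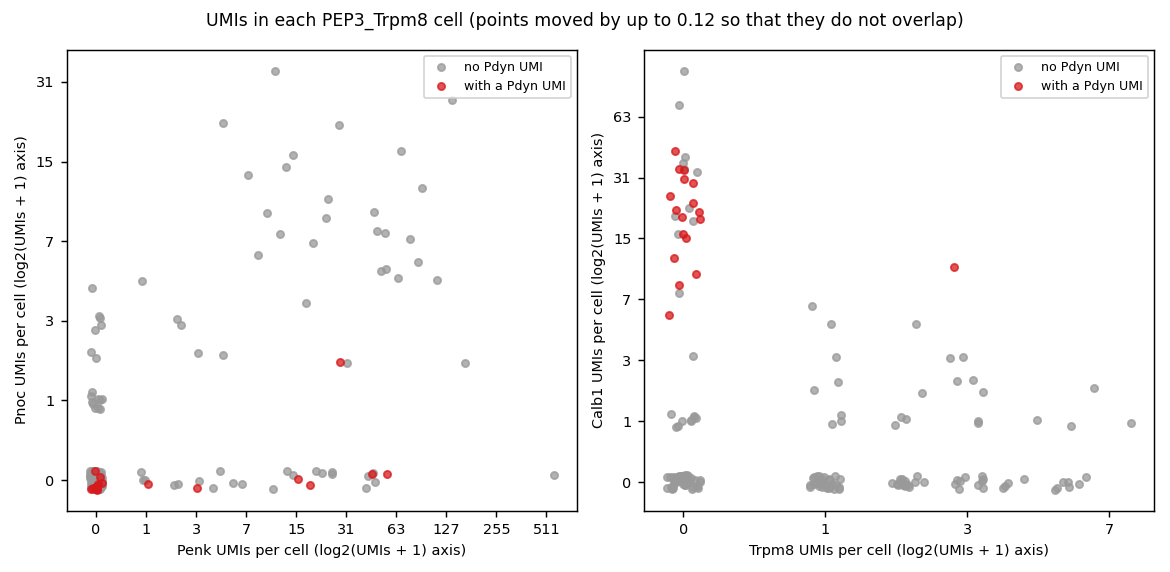
UMIs in each of the 168 PEP3_Trpm8 cells, on log2(UMIs + 1) axes, for Penk against Pnoc (left) and Trpm8 against Calb1 (right), with the 18 cells that held a Pdyn UMI in red. The red points lie at 0 Pnoc UMIs but for 1 cell, at 0 Trpm8 UMIs but for the same cell, and at 6 to 44 Calb1 UMIs.

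The receptors were distributed more broadly than the precursors and differed from each other. Oprm1 was found in 10 types, Oprl1 in 12, and Oprk1 and Oprd1 in 5 each.

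**Figure D3:**
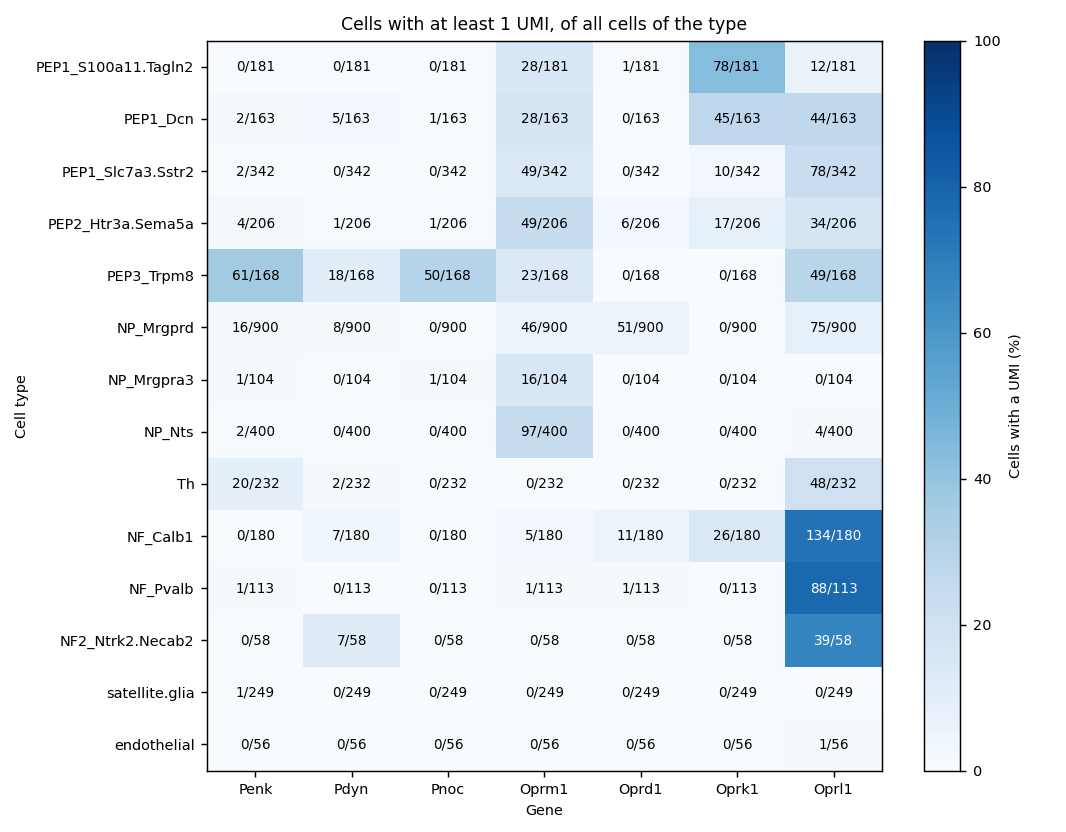
Cells with at least 1 UMI of a member, printed as a count of all cells of the type, with the share in percent as the shade of blue (0 to 100%). Oprl1 reached 88 of 113 NF_Pvalb cells, Oprk1 78 of 181 PEP1_S100a11.Tagln2 cells and Oprm1 97 of 400 NP_Nts cells, while Oprd1 stayed at 51 of 900 cells or fewer.

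Oprm1, the mu receptor and main target of morphine, had its 4 highest mean levels in types that could not be told apart. They were 4.64 ± 1.61 CPM in PEP3_Trpm8, 4.58 ± 1.33 in NP_Nts, the somatostatin itch neurons, 4.04 ± 1.34 in PEP1_Slc7a3.Sstr2 and 3.93 ± 1.78 in PEP2_Htr3a.Sema5a. By mouse, PEP3_Trpm8 measured 6.01, 5.87, 2.04, 4.97 and 4.33 CPM and NP_Nts 4.38, 2.85, 3.97, 5.39 and 6.32 CPM. The ranges overlapped, and the mean paired difference of 0.060 CPM was far below its SD of 2.22. All 4 types were called higher than other cells. NP_Nts rested on the most UMIs (114 in 97 of 400 cells), with a log2 fold change of 1.88 ± 0.24 (adjusted p = 1.07e-05, edgeR) in a type where 6.13% of genes were called higher. PEP1_Slc7a3.Sstr2 reached 1.46 ± 0.29 (adjusted p = 0.000765) against 6.93% of genes called, and PEP2_Htr3a.Sema5a 1.29 ± 0.33 (adjusted p = 0.00465) against 8.74%. In PEP3_Trpm8 the log2 fold change was 1.53 ± 0.37 (adjusted p = 0.00311) on 24 UMIs, and this call was lost without mouse 1, 2, 4 or 5. The PEP2_Htr3a.Sema5a call was lost without mouse 1, 2 or 5, so the calls in NP_Nts and PEP1_Slc7a3.Sstr2 are the ones that held without any single mouse. When a UMI in at least 25% of the cells of the type was required, all 4 were lost.

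Lower on the Oprm1 scale came PEP1_Dcn (2.78 ± 1.78 CPM), PEP1_S100a11.Tagln2 (2.30 ± 1.81 CPM) and NP_Mrgpra3, the other itch type (1.45 ± 0.765 CPM), none of which was called. In PEP1_Dcn the log2 fold change was 1.05, with an adjusted p of 0.0281 (edgeR). Its level was not set apart from that of PEP2_Htr3a.Sema5a (mean paired difference 1.15 ± 3.04 CPM, SD). Mouse 1 had no Oprm1 UMI in its 4 PEP1_Dcn cells. NP_Mrgprd, the abundant non-peptidergic nociceptor, was lower than other cells at 0.581 ± 0.198 CPM (log2 fold change -1.78, adjusted p = 0.000208, lower in 5 of 5 mice). NF_Calb1 was lower too, on 5 UMIs. Th neurons were called lower with no Oprm1 UMI at all, which at 13913248 UMIs allows up to 0.216 CPM. NF2_Ntrk2.Necab2, satellite glia and endothelial cells also held none and were not tested. The step from NP_Mrgpra3 to NP_Mrgprd, both non-peptidergic, was the only neighbouring one beyond its spread (0.868 ± 0.825 CPM, SD, higher in 5 of 5 mice).

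Oprk1, the kappa receptor, was highest in a pair of PEP1 types and NF_Calb1. In PEP1_S100a11.Tagln2 it measured 23.2, 13.9, 12.6, 25.4 and 14.5 CPM in mouse 1 to mouse 5, against 1.02 ± 0.458 CPM in other cells. The log2 fold change was 4.14 ± 0.31 (SE, adjusted p = 1.87e-07, edgeR), in a type where 3.98% of genes were called higher. All 5 values lay above those of the other cells. PEP1_Dcn followed with 9.75 ± 6.53 CPM (adjusted p = 2.90e-06, 6.87% of genes called) and NF_Calb1 with 4.4 ± 3.37 CPM (adjusted p = 0.00260, 14.8% called). In NF_Calb1 the top 5 cells held 37 of 68 Oprk1 UMIs, and the call was lost without mouse 2 or mouse 3 and when a UMI in at least 25% of the cells was required. Mouse 1 had no Oprk1 UMI in its 4 PEP1_Dcn cells. PEP2_Htr3a.Sema5a (1.58 ± 1.03 CPM) and PEP1_Slc7a3.Sstr2 (1.26 ± 0.983 CPM) were not called. The other 9 types held none, NP_Mrgprd with 92245664 UMIs among them, where the limit of 0.0325 CPM puts PEP1_S100a11.Tagln2 at least 552-fold higher. Within the PEP1 types Oprk1 thus ran from 43.1% of PEP1_S100a11.Tagln2 cells through 27.6% of PEP1_Dcn cells to 2.92% of PEP1_Slc7a3.Sstr2 cells, in which the median depth was 49113, 49516 and 38283.5 UMIs.

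Oprl1, the nociceptin receptor, was highest in the neurofilament neurons, the large myelinated cells of touch and body position. In NF_Pvalb it measured 34.5, 40.5, 30.2, 26.2 and 25.3 CPM in mouse 1 to mouse 5, and 88 of 113 cells held a UMI (77.9%, interval 69.1 to 85.1%). NF_Calb1 measured 26.5, 26.6, 20.6, 24.7 and 23.7 CPM, with 134 of 180 cells positive, and NF2_Ntrk2.Necab2 14.4 ± 6.02 CPM. NF_Pvalb stood above NF_Calb1 in 5 of 5 mice, by 6.93 ± 5.36 CPM (SD). All 3 were called higher, with log2 fold changes of 2.62 ± 0.23 in NF_Pvalb (adjusted p = 1.44e-07, edgeR, 13.4% of genes called), 2.42 ± 0.19 in NF_Calb1 (adjusted p = 4.79e-08) and 1.31 ± 0.31 in NF2_Ntrk2.Necab2 (adjusted p = 0.00271, 7.79% of genes called). The call in NF2_Ntrk2.Necab2 was lost without mouse 2, 3 or 4 and with sums of at least 10 cells.

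The fourth type called higher for Oprl1 was PEP3_Trpm8, with 11.8 ± 3.43 CPM and a log2 fold change of 1.18 ± 0.28 (adjusted p = 0.00294, edgeR), a call lost without mouse 2, 4 or 5. PEP1_Slc7a3.Sstr2 (7.95 ± 1.67 CPM), PEP1_Dcn (7.83 ± 1.72 CPM) and Th (3.90 ± 1.04 CPM) were not called, although PEP1_Dcn stood above Th in 5 of 5 mice. Oprl1 was called lower in 6 types. Among them were both itch types, with 4 UMIs in 400 NP_Nts cells and none in 104 NP_Mrgpra3 cells, and PEP1_S100a11.Tagln2 at 0.925 ± 0.864 CPM, the type with the highest Oprk1. In NP_Mrgprd the level was 2.62 ± 2.44 CPM, of which mouse 1 gave 6.85 CPM and the other mice at most 2.41 CPM. Of the 33 Oprl1 UMIs of mouse 1 in that type, 22 came from 1 cell of 198935 UMIs. Without mouse 2 this lower call was lost.

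Oprd1, the delta receptor, was the least counted member with 75 UMIs in 70 cells, and it passed the filter on low counts in no type. Of these UMIs, 54 were in NP_Mrgprd, where the level was 0.830, 0.622, 1.07, 0.702 and 0.410 CPM in mouse 1 to mouse 5 and 51 of 900 cells were positive (5.67%, interval 4.25 to 7.38%). PEP2_Htr3a.Sema5a (0.591 ± 0.585 CPM, 7 UMIs) and NF_Calb1 (0.589 ± 0.639 CPM, 11 UMIs) had similar means with wider spreads. The NP_Mrgprd level was above that of other cells (0.186 ± 0.099 CPM) in 5 of 5 mice. NP_Mrgprd was also the deepest type, and thinned to 10000 UMIs per cell the share fell to 0.685%, against 0.702% in NF_Calb1. Which type holds the most Oprd1 could not be settled at this depth: with UMIs pooled over mice, or without mouse 1, NF_Calb1 was highest, and without mouse 3, PEP2_Htr3a.Sema5a. In PEP3_Trpm8, Th, both itch types, PEP1_Dcn, PEP1_Slc7a3.Sstr2, NF2_Ntrk2.Necab2 and the other 2 cell types no Oprd1 UMI was seen. The 400 NP_Nts cells allow a share of cells with a UMI of up to 0.750%, which does not limit the share expressing the gene.

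For all members, 32 pairs of neighbouring types in the order of levels were compared, those in which the higher type held at least 10 UMIs. With 5 mice the exact two-sided sign-flip test cannot give a p below about 0.063, and the smallest value adjusted over the 32 pairs was 0.222. In 8 pairs all mice had the same sign and the mean difference exceeded its SD. These included the step from PEP3_Trpm8 to the next type for each precursor: 517 ± 281 CPM down to Th for Penk, 65.1 ± 34.6 CPM for Pnoc and 10.4 ± 6.35 CPM for Pdyn. For the receptors the top of the order was less distinct. The difference between PEP1_S100a11.Tagln2 and PEP1_Dcn in Oprk1 had the same sign in 5 of 5 mice, but at 8.19 ± 8.97 CPM it did not exceed its SD.

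Ligand and receptor could be seen in the same cells of PEP3_Trpm8, which held Pnoc and its receptor gene Oprl1. Cells with both numbered 8, below the product of 14.5, and cells with Penk and Oprl1 numbered 11, below 17.4. Oprm1 and Penk, a receptor and its ligand, were together in 9 cells against a product of 8.75, and Oprm1 and Pnoc in 12 against 6.80. Neither Oprk1 nor Oprd1 was seen in PEP3_Trpm8, where a count of 0 allows 0.553 CPM. Between receptors, Oprk1 and Oprl1 shared 24 of 180 NF_Calb1 cells (product 19.8), so that 24 of the 26 Oprk1 cells of this type also held Oprl1. Oprm1 and Oprk1 shared 14 of 163 PEP1_Dcn cells (product 8.22), and in PEP1_S100a11.Tagln2 they shared 10 (product 11.8). The 14 cells with both in PEP1_Dcn had a median depth of 72605.5 UMIs against 49516 for the type, and thinned to 10000 UMIs their share was 0.479% against a product of 0.314%.

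To ask how the classes of neurons differ, UMIs were summed over the 5 PEP, 3 NP and 3 NF types of each mouse. For 5 of the 7 members the sums passed the filter on low counts. All 5 were called higher in PEP than in NP neurons, where 16.9% of all genes tested were called higher and 7.68% lower. Of these, Oprk1, Penk and Pnoc passed the filter largely through PEP neurons, which held 318, 2297 and 336 of their UMIs. NP neurons held 0, 158 and 1. The calls of these 3 genes in contrasts with PEP neurons therefore support nothing by themselves. Against NF neurons, PEP neurons were called higher for Oprm1, Penk and Pnoc and lower for Oprl1, with 12.6% of genes called higher and 11.3% lower. NP neurons were called higher than NF neurons for Oprm1 and lower for Oprk1 and Oprl1, beside 16.4% and 22.1% of all genes.

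**Figure D4:**
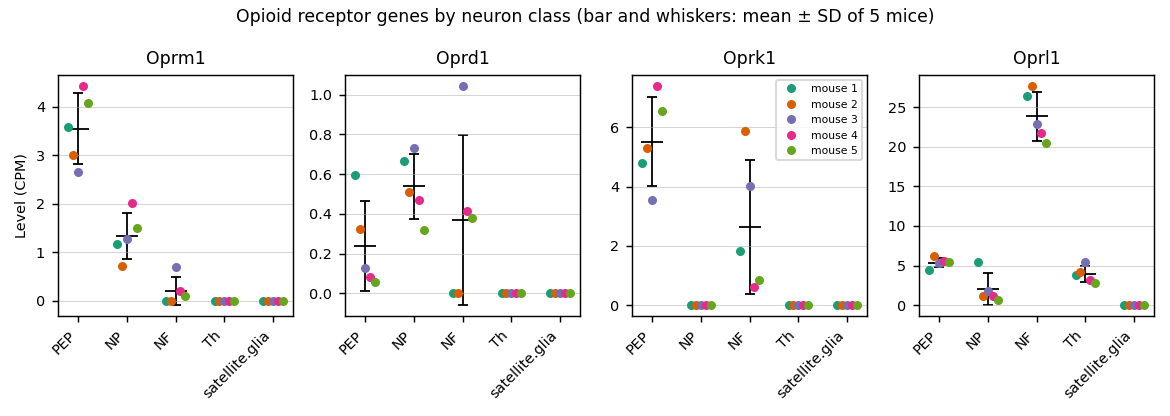
Level of each receptor gene (vertical axis, CPM, a linear scale per gene) in the PEP, NP and NF neuron classes, Th neurons and satellite glia, with a point per mouse and the mean ± SD of 5 mice. Oprl1 stands at 20.4 to 27.7 CPM in NF neurons, above every value of the other classes, and Oprm1 is highest in PEP neurons.

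Oprm1 measured 3.55 ± 0.735 CPM in PEP, 1.33 ± 0.477 in NP and 0.200 ± 0.291 in NF neurons. The lowest PEP value (2.66 CPM) lay above the highest NP value (2.02 CPM), and the log2 fold change between them was 1.16 ± 0.28 (adjusted p = 0.00144, edgeR). It was 3.996 ± 0.50 for PEP against NF and 2.83 ± 0.54 for NP against NF. Oprl1 ran the other way round, with 23.8 ± 3.11 CPM in NF, 5.38 ± 0.610 in PEP and 2.03 ± 1.97 in NP neurons. The log2 fold change of PEP against NF was -2.11 ± 0.29 (adjusted p = 3.90e-06, edgeR) and that of NP against NF was -3.83 ± 0.33 (adjusted p = 2.35e-09, edgeR). Mouse 1 gave the highest NP value, 5.49 CPM, which was above its PEP value of 4.48 CPM. The mu and nociceptin receptors thus had opposite orders over PEP and NF neurons.

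Oprk1 was at 5.52 ± 1.51 CPM in PEP and 2.64 ± 2.25 in NF neurons, a difference that was not called (log2 fold change 1.13, adjusted p = 0.0325, edgeR). Among 123100294 NP UMIs there was none of Oprk1, so that PEP neurons were at least 226-fold higher and NF neurons at least 108-fold. Penk and Pnoc lay almost wholly in PEP3_Trpm8 within the PEP class. Of 2297 Penk UMIs in PEP neurons 2289 were in that type, and without it the level was 0.169 ± 0.241 CPM, beside 2.03 ± 2.54 CPM in NP neurons. For Pnoc it was 334 of 336 UMIs. When every type of a class was given equal weight, 5 of the 12 class calls remained, all of them in Oprm1 or Oprl1, and the 7 that were lost included all calls of Oprk1, Penk and Pnoc and that of Oprm1 in PEP against NP neurons. This setting averages log levels, which have no bound in a type with 0 UMIs. Oprk1 had 0 UMIs in every NP type, and Penk and Pnoc in several types. For these 3 genes the setting cannot tell whether the calls depend on weighting. Oprm1 also had 0 UMIs in NF2_Ntrk2.Necab2 and Oprl1 in NP_Mrgpra3, so the same holds for their contrasts that include these types. Of the calls that remained, only that of Oprl1 in PEP against NF neurons compared types that all held UMIs.

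Other genes of opioid signalling were taken from a list of 53, of which 47 were tested between the classes. PEP against NP neurons gave 13 genes higher (over all genes 16.9%), 4 lower (7.68%) and 30 without a call, with a median log2 fold change of 0.28 against 0.04 over all genes. PEP against NF neurons gave 10 higher and 10 lower, where 12.6% and 11.3% of all genes were called (median 0.13 against 0.00), and NP against NF neurons 11 higher and 15 lower, where 16.4% and 22.1% were called (median 0.13 against -0.01).

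**Figure D5:**
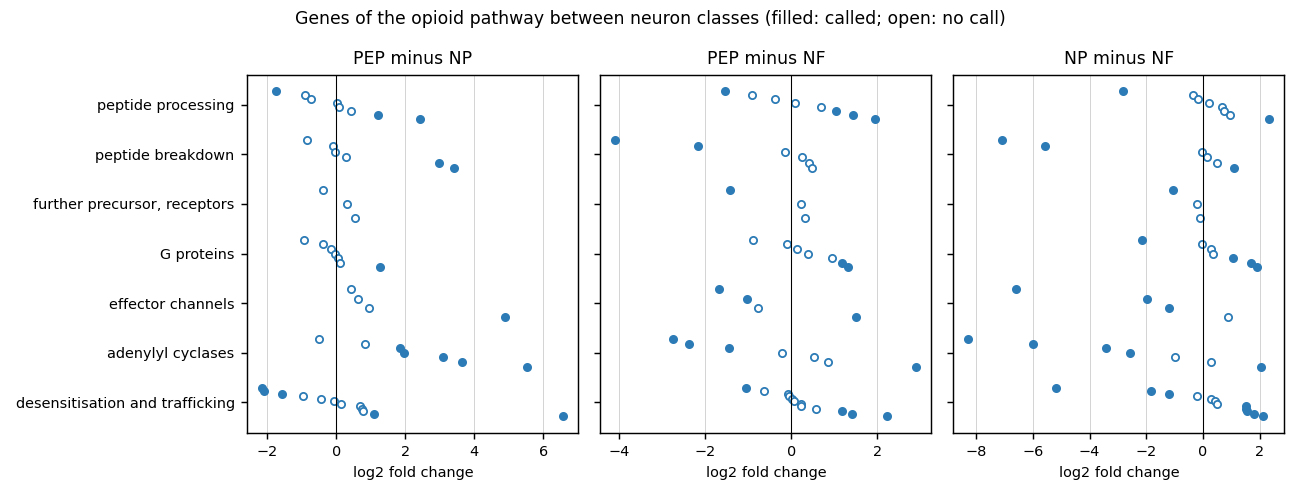
Log2 fold change of each tested gene of the opioid pathway list (horizontal axis) by its role (vertical axis) in the 3 class contrasts, with called genes filled and others open. In NP against NF neurons the adenylyl cyclases spread from -8.28 (Adcy1) to 2.07 (Adcy5).

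Adenylyl cyclases are the enzymes that make cyclic AMP. In PEP against NP neurons 5 of 7 were called higher and none lower, beside 16.9% and 7.68% of all genes. In PEP against NF neurons 1 was higher and 3 lower (12.6% and 11.3% of all genes), and in NP against NF neurons 1 was higher and 4 lower (16.4% and 22.1%). Adcy1 measured 82.0 ± 10.2 CPM in NF, 11.8 ± 3.99 in PEP and 0.205 ± 0.188 in NP neurons, with log2 fold changes of 5.53 for PEP against NP and -8.28 for NP against NF. Adcy8 was at 6.78 ± 1.24, 1.18 ± 0.643 and 0.0963 ± 0.0473 CPM in the same order. Adcy5 took another course, with 23.2 ± 3.87 CPM in PEP, 11.4 ± 1.39 in NP and 2.79 ± 1.00 in NF neurons. Of the 4 effector channels tested, Cacna1h, a T-type calcium channel, was at 29.4 ± 9.96 CPM in NF and 0.262 ± 0.142 in NP neurons.

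Among 12 genes of desensitisation and trafficking, 2 were higher and 3 lower in PEP than in NP neurons (16.9% and 7.68% of all genes). In PEP against NF neurons 3 were higher and 1 lower (12.6% and 11.3% of all genes). In NP against NF neurons 5 were higher and 3 lower (16.4% and 22.1%). The 2 higher of 12 in the first contrast are near the 16.9% of all genes. Rgs9, which speeds up the switching off of G proteins, had a log2 fold change of 6.59 there (13.2 ± 3.71 against 0.0919 ± 0.0764 CPM). Mme, the enkephalin-degrading enzyme neprilysin, was highest in NF neurons at 8.96 ± 1.72 CPM, against 0.547 ± 0.0784 in PEP and 0.0525 ± 0.0431 in NP neurons, with log2 fold changes of -4.09 for PEP against NF and -7.08 for NP against NF. The 7 G protein genes gave 1 higher in PEP than in NP neurons, near the 16.9% of all genes, 2 higher in PEP than in NF neurons (12.6% of all genes), and 3 higher and 1 lower in NP than in NF neurons (16.4% and 22.1%). Of 8 genes of peptide processing, 2 were higher and 1 lower in PEP than in NP neurons, beside 16.9% and 7.68% of all genes. Against NF neurons, 3 were higher and 1 lower in PEP neurons (12.6% and 11.3% of all genes). In NP neurons 1 was higher and 1 lower (16.4% and 22.1%). The genes called in PEP against NP neurons were the convertase Pcsk1 (26.0 ± 8.54 against 4.30 ± 2.40 CPM) and Pam, and the carboxypeptidase Cpe (329 ± 40.3 against 964 ± 92.1 CPM), which were named after their values were seen.

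Pomc, the precursor of beta-endorphin, differed from the 3 other precursors in that every type held it, from 3.08 ± 2.54 CPM in satellite glia to 13.0 ± 5.78 CPM in PEP1_Dcn. It was called in none of the 3 class contrasts. Mrgprx1 and Ackr3 did not pass the filter there. In levels, Mrgprx1, a receptor for peptides cut from the Penk precursor, was highest in NP_Mrgpra3 at 5.78 ± 2.62 CPM. Ackr3, a scavenger of opioid peptides, was highest in satellite glia at 12.7 ± 3.48 CPM, with 48 of 249 cells positive, the cells in which the classical receptors had no UMI.

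Genes with the most similar pattern were sought over the 14 type means, as the Pearson correlation of log2(CPM + 1) among 11124 genes that reached 10 CPM in some type. The points share libraries and depth, so the correlations are descriptions. Pnoc stood at 0.167 CPM or less outside PEP3_Trpm8, so its correlations rest on that 1 type. Oprd1 reached 0.727 CPM at most, so its correlations rest on values near the floor. The genes nearest to Pnoc were Slc34a2 (r = 0.999, within-mouse range 0.986 to 1.00), Qrfpr (0.997) and Cpxm2 (0.981), all highest in PEP3_Trpm8. Penk was nearest to 8430422H06Rik (0.980), Qrfpr (0.938) and Slc34a2 (0.928), and Pdyn to Tnni1 (0.949), Pnoc (0.933) and Slc34a2 (0.932). For the receptors, Oprk1 was nearest to the muscarinic receptor gene Chrm2 (0.957, within-mouse range 0.844 to 0.949), Wnt4 (0.849) and Slc5a7 (0.827). Oprm1 was nearest to Tmtc4 (0.915), Scg2 (0.904) and Cacna1c (0.904), Oprl1 to Rasd2 (0.915), Slc2a13 (0.913) and Pcp4 (0.908), and Oprd1 to Gm765 (0.913), Wnt5a (0.803) and Adamts8 (0.753). With Spearman correlations none or 1 of the 3 genes was the same for each member.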

How the data were processed

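Dorsal root ganglia of 5 mice were measured with the Chromium 3′ assay. The authors counted UMIs with Cell Ranger on mm10, kept cells with 500 to 15000 genes and at most 10% mitochondrial reads, and clustered and named them with Seurat. The deposited values are raw UMI counts per gene and cell, with no normalization, and 1 cell type per cell. About 6000 cells were loaded per lane, and no doublet caller was run here. The type NF_Calb1 is spelled NF_Ca1b1 in the deposited annotation. No sample label names the libraries: each was taken as 1 mouse and numbered by its cell counts per type, of which 70 of 70 equalled those of the study, so p-values measure the spread between 5 libraries. Of 17271 rows, 4 named for constructs were left out (143 UMIs). Mice held 13050375, 42666954, 28667742, 51281229 and 88886919 UMIs.

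UMIs were summed per type or class and mouse and tested in edgeR 4.0.16 (R 4.3.3) with filterByExpr, TMM and quasi-likelihood tests, p-values being adjusted over all genes tested after Benjamini and Hochberg, after a check on simulated data. Neighbouring types were compared by exact two-sided sign-flip permutation tests. Shares have exact Clopper-Pearson 95% intervals, a count of 0 the limit of 3 counts, and thinned shares are expected at 10000 UMIs per cell, with no cell below that. All cover counting error only. Sums compared come from the same mice: after removal of group means the 2 sums of a mouse correlated across genes between -0.021 and 0.398, and between 0.083 and 0.374 for classes. Descriptions used Python 3.11.15, numpy 2.4.6, scipy 1.17.1 and pandas 2.3.3. The members, lists and markers were chosen with earlier results of these data known. Named were the members, the markers, the 3 genes most like each member, and the 4 called pathway genes of largest fold change per class contrast. The rows of Grk2 and Grk3 carry the older names Adrbk1 and Adrbk2, and Kcnj5 had no row. Alternatives were DESeq2 1.42.0, RLE factors, no filter, a block for the mouse, other thresholds, sums of at least 10 cells and leaving out each mouse.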

Additional observations from a re-analysis of the deposited data

Results flagged for a closer look

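Of 26 levels of a member in a type with at least 20 UMIs, 1 had a mouse far from the other 4, where chance gives about 1 in 20. It was Oprl1 in NP_Mrgprd, at 6.85 CPM in mouse 1 against 0.797 to 2.41 CPM in the others. In that mouse 22 of the 33 Oprl1 UMIs of the type came from 1 cell that held 198935 UMIs in all. Without that cell mouse 1 stood at 2.38 CPM, and the mean over mice was 1.72 ± 0.688 CPM (SD) instead of 2.62 ± 2.44 CPM.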

How the results depend on the processing

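No call of a member changed sign under another test, scaling, filter, threshold or weighting, or without 1 mouse. Without PEP3_Trpm8, the Penk level of PEP neurons (0.169 CPM) lay below that of NP neurons (2.03 CPM). With DESeq2, 14 higher, 29 lower and 13 class calls were made, against 14, 29 and 12 with edgeR: Penk was no longer called lower in NP_Mrgprd, and was called lower in endothelial cells and higher in NP than in NF neurons. The pairing of sums by mouse was tested with a replicate block, which gave 14, 30 and 12 calls and changed no call of a member except that Penk in endothelial cells was added as lower. Without the filter on low counts there were 16 higher calls, with Oprd1 in NP_Mrgprd and Pdyn in NF2_Ntrk2.Necab2 added, and 41 lower ones. When a UMI in at least 25% of the cells was required, 8 higher calls remained, the 6 lost being all 4 of Oprm1, Pdyn in PEP3_Trpm8 and Oprk1 in NF_Calb1, and with the types of a class weighted equally 5 class calls did. For Oprk1, Penk and Pnoc that weighting cannot decide, since a type with 0 UMIs has no bounded log level. The same holds for Oprm1 in contrasts with NF neurons and for Oprl1 in contrasts with NP neurons. Without 1 mouse at a time, higher calls numbered 9 to 13, fewest without mouse 2, lower calls 28 to 31 and class calls 11 to 14. The lower calls of Penk in NP_Mrgprd, Oprl1 in NP_Mrgprd, Oprk1 in PEP3_Trpm8 and Oprm1 in NF_Calb1 were lost without mouse 1, 2, 4 and 5 in turn, as was Oprm1 in PEP against NP neurons without mouse 5.

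With cells pooled over mice and thinned to 10000 UMIs, the share of cells with a UMI in the highest type fell. It went from 13.7% to 4.25% for Oprm1, from 5.67% to 0.685% for Oprd1, from 43.1% to 15.99% for Oprk1 and from 77.9% to 25.5% for Oprl1. As means over mice the unthinned shares were 15.3% for Oprm1, 7.01% for Oprd1, 49.0% for Oprk1 and 84.9% for Oprl1. The Pdyn level in PEP3_Trpm8 was 17.97 CPM as a mean over cells, against 11.6 CPM from sums. Leaving out 1 mouse moved the levels within 4.30 to 5.29 CPM for Oprm1, 0.641 to 0.806 for Oprd1, 16.1 to 19.3 for Oprk1, 29.0 to 32.9 for Oprl1, 423 to 597 for Penk, 10.0 to 13.0 for Pdyn and 53.0 to 72.8 for Pnoc. The shares, as means over mice, moved within 13.6 to 18.3% for Oprm1, 6.66 to 7.79% for Oprd1, 43.7 to 52.4% for Oprk1, 81.1 to 88.9% for Oprl1, 31.9 to 43.0% for Penk, 8.53 to 14.6% for Pdyn and 25.4 to 29.3% for Pnoc. Between 5 and 7 of the 7 members kept their highest type. Exceptions were Oprm1, which moved to NP_Nts under 5 alternatives, and Oprd1, which moved to NF_Calb1 or PEP2_Htr3a.Sema5a under 3. Counts of 75 UMIs for Oprd1 and 89 for Pdyn limit what can be said of them. The cause of these moves was not tested.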

Other observations

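Pairs of members were also seen together in single cells outside PEP3_Trpm8. Pdyn and Oprl1 shared 7 of 180 NF_Calb1 cells, which were all 7 Pdyn cells of that type, where the product of shares within each mouse gives 5.34 cells. Oprd1 and Oprl1 shared 9 of 900 NP_Mrgprd cells against a product of 4.65, and these 9 cells had a median depth of 121895 UMIs against 105150 for the type. Oprm1 and Oprl1 shared 13 of 342 PEP1_Slc7a3.Sstr2 cells against a product of 11.5. Oprk1 and Oprl1 shared 8 of 163 PEP1_Dcn cells against a product of 12.1. These are counts without a test.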
